A study of Mus musculus with 8 samples.

Results

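The genes described here are 35 genes of fatty acid oxidation and lipid droplets in mouse muscle stem cells (MuSCs), out of 36047 genes with an annotation in the deposited tables. They were taken from a list of names that follows a fatty acid from its entry into the cell to the electrons it yields. The rule that lists them uses names and no measured value, but the list was drawn up with earlier results of these data known. All 35 passed the filter on low counts and are among the 17997 genes tested.

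RNA was sequenced from MuSCs of 5 male Pax7-nTnG mice aged 5 to 6 months, of which 3 ate a vitamin A-free (VA-free) diet for 8 weeks and 2 continued on normal chow, called the control diet. In these mice a tamoxifen-activated Cre made from the Pax7 locus switches the nuclear label of MuSCs from red to green, and mice on both diets received tamoxifen. Cells with green nuclei were sorted from gastrocnemius and quadriceps muscle. The RNA of each mouse was split at the column into technical replicates A and B, and 8 libraries entered here (VA-free 1B, 2A, 3A and 3B, control 1A, 1B, 2A and 2B). The mouse is the replicate throughout, and the missing vitamin and any other difference between the feeds cannot be told apart.

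A long-chain fatty acid is taken up with the help of Cd36, is bound in the cytosol by fatty acid binding proteins and is activated to an acyl-CoA by the Acsl enzymes. Carnitine palmitoyltransferase 1 (Cpt1) hands the acyl group to carnitine at the outer mitochondrial membrane, and this is the step that sets the rate of oxidation. Slc25a20 and Cpt2 bring it into the matrix, where acyl-CoA dehydrogenases, hydratases, hydroxyacyl dehydrogenases and thiolases shorten it, and where electron transfer flavoprotein passes the electrons on to the respiratory chain. Fatty acids that are not burned are stored as triglyceride in lipid droplets. The PPAR receptors, bound to DNA together with a retinoid X receptor (RXR), control many of these genes. Fatty acid oxidation is known as a main source of energy of resting MuSCs.

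Promoter sequences of RefSeq (GRCm38.p6) were at hand for 31 of the 35 genes, as windows of 250 bases before and 50 bases after the annotated start. They are shown because PPAR and RXR bind a repeat of the hexamer AGGTCA with 1 base between, called DR1. The letters AGGTCANAGGTCA, on either strand and with up to 2 mismatches, were found in the windows of 5 of the 31 genes (16.1%), which are Cd36, Echs1, Etfa, Plin2 and, after its start, Slc25a20. The same letters were found for 4.40% of the 27025 genes with a window. The hexamer AGGTCA itself, which overlaps DR1, was found for 8 of the 31 genes (25.8%) and 18.1% of all genes. The spacing of the retinoic acid receptor, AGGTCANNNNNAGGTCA with up to 2 mismatches, was found for none of the 31 and for 3.23% of all genes. TCAAGGTCA, an element of the estrogen-related receptors, was found without mismatch for none of the 31 and for 0.466% of all genes. These counts describe letters in a short window, not bound sites. The 250 bases before the start are printed for the genes called changed that hold DR1 letters upstream, with those letters in capitals, each in the direction of transcription. They are Cd36 (chr5:17835897-17836146, minus strand), Plin2 (chr4:86670060-86670309, minus strand), Etfa (chr9:55512244-55512493, minus strand) and Echs1 (chr7:140116422-140116671, minus strand). Cpt1a (chr19:3323051-3323300, plus strand) is added as the gene with the largest rise, with a lone hexamer, on the opposite strand, in capitals.
Cd36: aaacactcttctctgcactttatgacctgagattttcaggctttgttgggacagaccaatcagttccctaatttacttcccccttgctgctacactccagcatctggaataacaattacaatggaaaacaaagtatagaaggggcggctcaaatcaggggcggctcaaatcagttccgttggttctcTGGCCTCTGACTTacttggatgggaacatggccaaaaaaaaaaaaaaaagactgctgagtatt
Plin2: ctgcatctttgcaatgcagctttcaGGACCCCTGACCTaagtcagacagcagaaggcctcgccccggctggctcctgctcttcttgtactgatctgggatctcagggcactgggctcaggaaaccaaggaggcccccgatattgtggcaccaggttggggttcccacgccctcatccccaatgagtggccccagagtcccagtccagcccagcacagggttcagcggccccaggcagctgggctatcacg
Etfa: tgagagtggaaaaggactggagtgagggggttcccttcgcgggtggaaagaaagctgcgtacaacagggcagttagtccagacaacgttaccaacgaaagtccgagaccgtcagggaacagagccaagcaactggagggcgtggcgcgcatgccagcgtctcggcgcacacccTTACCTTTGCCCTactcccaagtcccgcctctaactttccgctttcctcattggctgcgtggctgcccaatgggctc
Echs1: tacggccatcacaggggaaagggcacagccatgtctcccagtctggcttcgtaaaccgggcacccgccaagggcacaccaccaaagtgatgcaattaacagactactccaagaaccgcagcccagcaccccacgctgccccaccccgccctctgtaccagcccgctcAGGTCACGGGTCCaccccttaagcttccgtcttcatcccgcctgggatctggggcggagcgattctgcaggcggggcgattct
Cpt1a: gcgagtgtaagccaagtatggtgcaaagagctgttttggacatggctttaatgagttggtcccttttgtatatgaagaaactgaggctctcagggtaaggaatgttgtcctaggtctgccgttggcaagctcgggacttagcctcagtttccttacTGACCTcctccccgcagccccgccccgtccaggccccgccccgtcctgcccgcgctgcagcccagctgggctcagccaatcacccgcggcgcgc

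Across the 35 genes, 3 were higher and 10 were lower on the VA-free diet, and 22 were not called, with edgeR's quasi-likelihood test at a Benjamini-Hochberg adjusted p under 0.05. Of all genes tested 41.4% were called, 18.9% higher and 22.5% lower, so that 13 called of 35 is close to the background of this comparison. The counts were 0 higher and 5 lower without VA-free 1, 1 and 5 without VA-free 2, 1 and 7 without VA-free 3, 2 and 7 without control 1, 1 and 9 without control 2, 1 and 8 without library control 1A, 1 and 6 without 2B, and 2 and 9 without 2A. The median log2 fold change (VA-free minus control) of the 35 genes was -0.06 beside 0.003 over all genes. Every VA-free mouse lay below both control mice for 13 of the 35 genes, beside 32.3% of all genes, and above both for 4, beside 31% of all genes. Among the called genes, the uptake protein Cd36 and the receptor gene Pparg had the largest falls and Cpt1a the largest rise, and differences between the steps were not tested. Levels are given as CPM (counts scaled to the size of the library, by TMM) when diets are compared, and as TPM (abundance per transcript length) when genes are compared with each other.

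**Figure D1:**
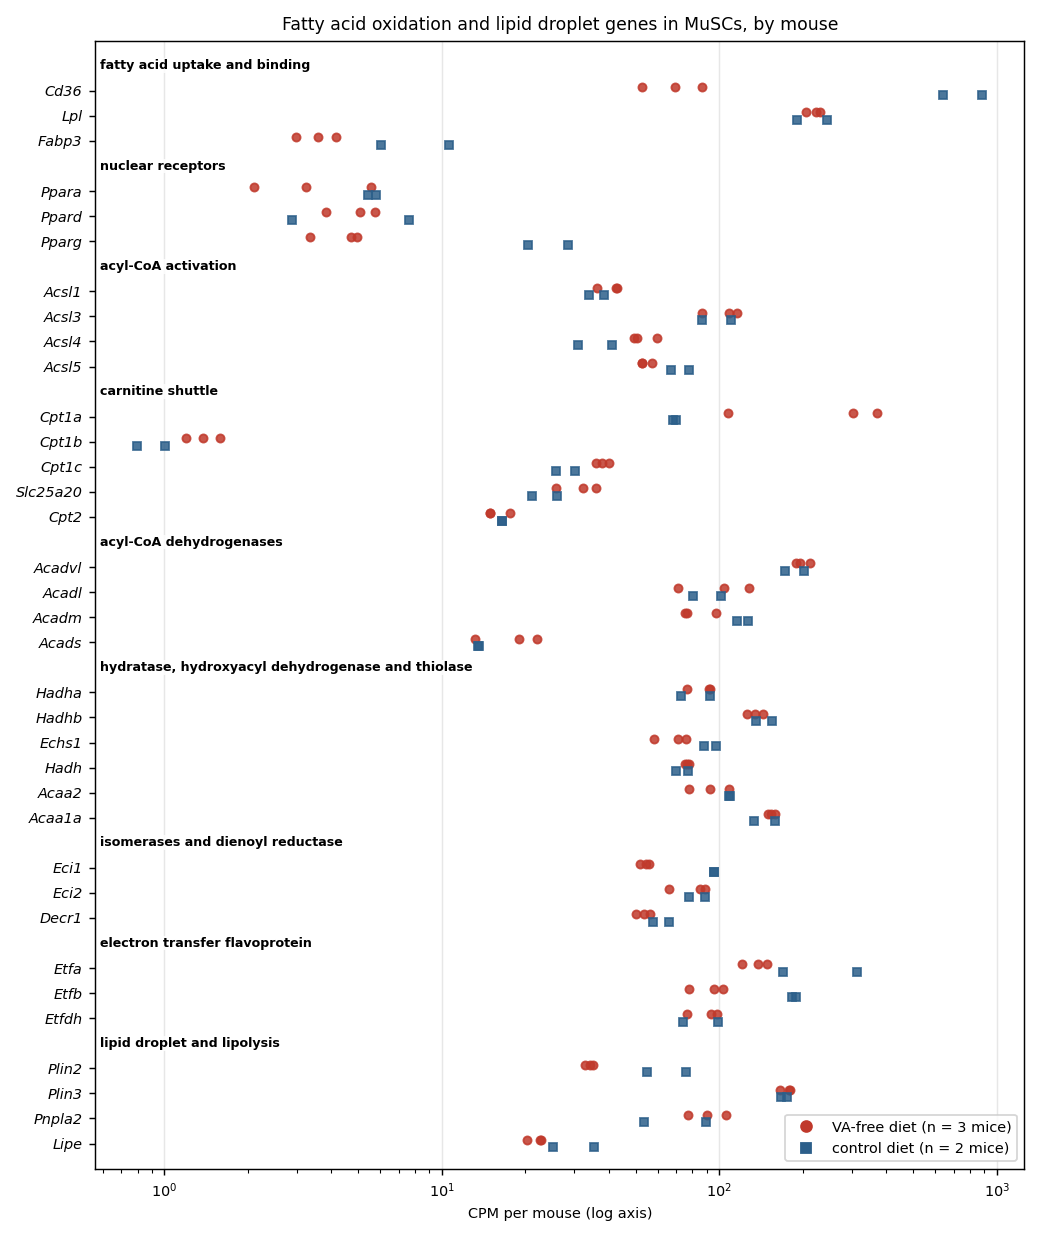
CPM of each of the 35 genes (log axis) in the 3 VA-free mice (circles) and the 2 control mice (squares), grouped by step. Cd36 and Pparg lie apart between the diets, Cpt1a is higher in each VA-free mouse with VA-free 2 nearest the controls, and for most enzymes of the oxidation cycle the symbols overlap or nearly touch.

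Several measures of the samples moved with diet and stand beside the results below. Libraries held 44831232 to 88650428 estimated counts, and in these totals the diets overlapped. All 12 MuSC markers were detected and all 12 were higher on the VA-free diet, with a summed level of 6362 to 6914 CPM in VA-free and 2130 to 4056 CPM in control libraries. Their log2 fold changes ran from 0.69 to 1.70, with a median of 1.15. All 12 endothelial markers were lower (283 to 364 beside 1325 to 3208 CPM), as were all 6 Schwann cell markers (32.2 to 41.2 beside 291 to 605 CPM) and 5 of 6 tenocyte markers (38.3 to 63.7 beside 668 to 1165 CPM). Of 12 myofiber markers 6 were lower (341 to 439 beside 505 to 636 CPM), of 10 macrophage markers 3 (24.0 to 147 beside 175 to 890 CPM), and of 8 pericyte markers 4 were lower and 1 higher (1551 to 1827 beside 2518 to 3018 CPM). Of 10 markers of fibro-adipogenic progenitors 7 were lower and 1, Col3a1, was higher. Their sum was higher on the VA-free diet (15913 to 18467 beside 8698 to 14026 CPM). Col3a1 and Gsn, the most abundant of them, together had 15557 to 18057 beside 5963 to 11956 CPM. Gsn itself was not called (0.19, adjusted p = 0.321, edgeR), and the other 8 together were lower (356 to 441 beside 2070 to 2736 CPM). In these bulk samples fewer cells of a type and less RNA per cell cannot be told apart. Control 2A stood apart from 2B, its partner from the same mouse: the median absolute log2 difference between A and B over the 35 genes was 0.58 in control 2, beside 0.18 in control 1 and 0.05 in VA-free 3. Over all genes tested it was 0.47, 0.22 and 0.11, so the gap in control 2 was not confined to these genes.

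Fold changes also followed transcript length over the whole transcriptome. The median log2 fold change was -0.63 in the 4500 shortest genes and 0.53 in the 4499 longest, and it rose by 0.32 for each doubling of length (rank correlation 0.37 across 17997 genes, which are not independent). Among the 35 genes, with genes parted by length into 4 even bins, 5 lay in the shortest bin with a median of -0.83, 18 in the next with -0.02, 10 in the next with 0.03 and 2 in the longest with 1.24. Each step was therefore also compared after the trend with length was removed in every mouse. Under that alternative 0 of the 35 genes were higher and 6 lower (Cd36, Pparg, Acsl5, Decr1, Plin2 and Lipe), and the paragraphs below name the calls it ends. Whether length itself had a part in any change was not tested. For genes outside the 35, estimates with the length trend removed are not given.

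**Figure D2:**
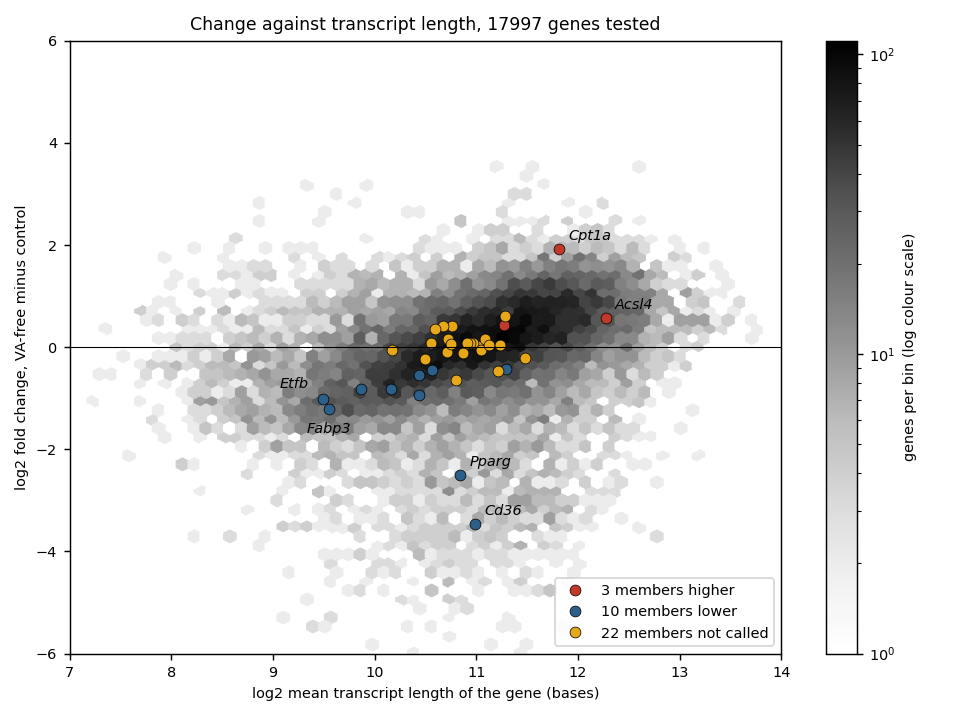
Log2 fold change (VA-free minus control) against the log2 mean transcript length in bases for the 17997 genes tested (grey, darker where more genes lie), with the 35 genes as coloured points. Cd36 and Pparg lie well below genes of their length, Cpt1a above them, and Fabp3 and Etfb lie near the grey cloud of short genes.

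Uptake and binding held the largest change. Cd36, the scavenger receptor that takes up long-chain fatty acids, had 52.6, 86.7 and 69.3 CPM in the 3 VA-free mice and 886 and 642 CPM in the control mice. The diets did not overlap in mice or in libraries, and the log2 fold change was -3.46 (SE 0.24, adjusted p = 0.000246, edgeR). It stayed past the threshold in all 24 alternatives, from -3.68 to -3.08, and was -3.51 with the length trend removed. Cd36 is also a gene of capillary endothelium, and its fall stood beside that of the 12 endothelial markers, whose part in it was not tested. Fabp3, the muscle-type fatty acid binding protein, was scarce, with 2.99, 3.57 and 4.17 CPM in VA-free and 10.6 and 6.06 CPM in control mice. Its log2 fold change was -1.22 (SE 0.30, adjusted p = 0.0177, edgeR), the groups did not overlap, and control 1 was the higher of the controls. Fabp3 is short (748 bases), and with the length trend removed it was -0.48 with an adjusted p of 0.263 by edgeR. The call was also lost without control 1 (-0.76), without VA-free 1 or 2, and on TPM.

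Lpl, the lipase that frees fatty acids from circulating lipoproteins, did not follow Cd36. Its level was 223, 231 and 206 CPM in VA-free and 244 and 190 CPM in control mice, with the VA-free mice inside the range of the controls. The log2 fold change was 0.02 (SE 0.14, adjusted p = 0.928, edgeR). Gpihbp1, which holds Lpl on the capillary wall, went from 225 and 115 CPM in the control mice to 7.69, 10.5 and 8.82 CPM in the VA-free mice (log2 fold change -4.24, SE 0.30, adjusted p = 0.000246, edgeR). Fabp4, the binding protein of adipocytes and capillary endothelium, had 45.8, 57.8 and 46.2 CPM in VA-free and 2031 and 702 CPM in control mice (-4.77, SE 0.43, adjusted p = 0.000415, edgeR). Its relative Fabp5 fell as well (-2.73). In the list of other uptake, binding and activation genes, 6 of 16 were higher and 5 lower, where 18.9% and 22.5% of all genes were. Of the 10 adipocyte markers Fabp4 alone was abundant. The others, Adipoq, Lep, Cidec and Plin1 among them, had at most 0.722 CPM in any mouse, a value of Cfd in control 1, and Lep was at 0 in every mouse.

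Of the nuclear receptors, Pparg fell and the other two were not called. Pparg, the receptor of fat cell formation and lipid storage, had 3.34, 4.93 and 4.71 CPM in VA-free and 28.4 and 20.5 CPM in control mice. The diets did not overlap in any library, and the log2 fold change was -2.50 (SE 0.24, adjusted p = 0.000498, edgeR), or -2.48 with the length trend removed. The call held in all 24 alternatives, and all 12 endothelial markers were lower as well, with their part not tested. Of the 10 progenitor markers 7 were lower, and the sum of the 8 other than Col3a1 and Gsn was lower on the VA-free diet. Ppard, the receptor most used by muscle, had 5.06, 5.76 and 3.84 CPM in VA-free mice and 7.63 and 2.87 CPM in the control mice, which enclosed them (-0.10, SE 0.43, adjusted p = 0.868, edgeR). Ppara, the receptor of the fasting liver, gave -0.63 (SE 0.41, adjusted p = 0.258, edgeR) with overlapping mice. Per transcript length Pparg was the most abundant of the family in both control mice, with 67.6% and 70.7% of the summed TPM of the 3 genes. In the VA-free mice it held 24.5%, 29.7% and 40.2%, and Ppard was ahead of it in each of them with 46.8%, 40.0% and 40.7%. Ppara held 28.6%, 30.4% and 19.1% there, just above Pparg in VA-free 1 and 2 and below it in VA-free 3. In VA-free 3 these shares of Ppard and Pparg differed by less than their spread between mice.

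In the list of PPAR partners, coregulators and targets 11 of 21 genes were higher, 2 were lower and 8 were not called, beside 18.9% higher and 22.5% lower over all genes. Angptl4, a secreted lipase inhibitor and PPAR target, had 84.0, 47.3 and 200.4 CPM in VA-free and 14.3 and 26.5 CPM in control mice (log2 fold change 2.44, SE 0.63, adjusted p = 0.0196, edgeR). Ppargc1b, a coactivator of mitochondrial genes, had 20.1, 17.2 and 14.1 CPM beside 4.94 and 5.22 CPM (1.75, SE 0.22). Pdk4, the kinase that spares glucose when fat is burned, and Rxra, the partner receptor, were named after their values were seen: Pdk4 had 198, 205 and 267 CPM beside 101 and 94.0 CPM (1.19, SE 0.17), and Rxra rose by 1.37 (SE 0.14). Rxrg, a related partner receptor, was named in the same way and was lower (-1.06, SE 0.30, adjusted p = 0.0285, edgeR). All 12 MuSC markers were higher as well (log2 fold change 0.69 to 1.70), with their part in the rises of this list not tested.

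Activation to acyl-CoA was divided between its genes. Acsl3, an enzyme of endoplasmic reticulum and lipid droplets, was the most abundant, at 86.4, 108 and 116 CPM in VA-free and 110 and 86.5 CPM in control mice, which overlapped (0.07, SE 0.17, adjusted p = 0.767, edgeR). Acsl4, which prefers arachidonic acid, was higher (0.56, SE 0.17, adjusted p = 0.0321, edgeR), with 49.1 to 59.7 CPM in VA-free and 30.9 to 40.9 CPM in control mice. Acsl5 was lower (-0.42, SE 0.12, adjusted p = 0.0278, edgeR), with 52.5 to 57.2 beside 66.9 to 77.9 CPM. Each gene parted all VA-free from all control mice, and neither change reached 1 on the log2 scale. Leaving out any VA-free mouse, control 1 or library control 2B ended either call. Acsl4 is the longest of the 35 genes (4957 bases) and its estimate was -0.03 with the length trend removed. For Acsl5 that alternative gave -0.64 (adjusted p = 0.00873, edgeR), while on TPM it was 0.16 and not called. Acsl1, the main isoform of fat and muscle, gave 0.17 and was not called. Per transcript length the order was Acsl3, Acsl5, Acsl1 and Acsl4 in every mouse, with Acsl3 at 42.8% to 56.3% of the summed TPM of the 4 genes, and in VA-free 3 Acsl5 (18.4%) and Acsl1 (16.4%) differed by less than the spread of Acsl5 between mice.

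In the carnitine shuttle 2 of 5 genes, Cpt1a and Cpt1c, were higher and 0 lower, beside 18.9% and 22.5% of all genes. The number higher was 0 without VA-free 1, without control 2 or with the length trend removed, and 3 on TPM. Cpt1a, the liver-type isoform found in most tissues, had 303, 108 and 369 CPM in the VA-free mice and 69.6 and 67.9 CPM in the control mice. Every VA-free mouse was above both controls, but VA-free 2 lay far below the other two. The log2 fold change was 1.92 (SE 0.48, adjusted p = 0.0177, edgeR). In libraries, the lowest VA-free value was 108 CPM and the highest control value was 104 CPM in control 2B, whose partner 2A had 31.9 CPM. The call was lost without VA-free 1 (adjusted p = 0.0542), without control 1 (0.0707), without control 2 (0.0772) and with the length trend removed (1.43, adjusted p = 0.0571), all by edgeR, and the estimate lay between 1.40 and 2.39 in all 24 alternatives. Leaving out VA-free 2, the mouse that stood apart, did not end the call. The same mouse was the lowest of its diet for Angptl4 but not for Pdk4. All 12 MuSC markers were higher as well (log2 fold change 0.69 to 1.70), with their part in the rise of Cpt1a not tested.

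Cpt1c, the neuronal isoform, was slightly higher (0.44, SE 0.13, adjusted p = 0.0377, edgeR), at 35.9, 37.7 and 40.0 CPM beside 30.3 and 25.7 CPM, and lost its call in 14 of the 24 alternatives, among them those without any 1 VA-free mouse, without control 2, without library control 2A (0.23) and with the length trend removed (0.23). Cpt1b, the isoform of muscle fibres, was near the detection floor with 1.58, 1.38 and 1.19 CPM beside 0.799 and 1.00 CPM. Each control value rests on 1 library, with 73 counts in 1A and 0 in 1B, and 0 in 2A and 106 in 2B. Besides, 81.4% of its exonic bases are shared with Gm44502 on the same strand, so its count is uncertain. Per transcript length Cpt1a led the family in every mouse, with 85.4%, 68.2% and 85.6% of the summed TPM in VA-free and 59.3% and 63.3% in control mice, followed by Cpt1c and then Cpt1b. The transporter Slc25a20 gave 0.41 (SE 0.19, adjusted p = 0.122, edgeR) and Cpt2 gave -0.06 (SE 0.16, adjusted p = 0.794, edgeR).

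**Figure D3:**
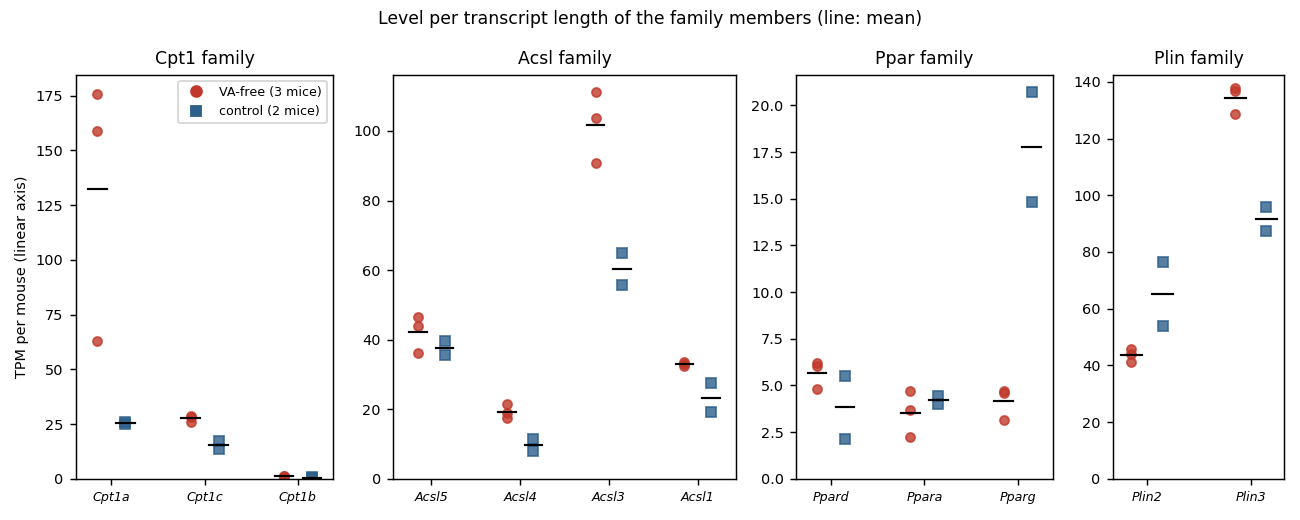
TPM per mouse (linear axis from 0) of the isoforms of Cpt1, Acsl, Ppar and Plin in the 3 VA-free mice (circles) and the 2 control mice (squares), with a line at each mean. Cpt1a leads its family on both diets, Pparg is the highest receptor in the control mice and below Ppard in each VA-free mouse, and Plin3 is above Plin2 in every mouse.

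Malonyl-CoA, made by the acetyl-CoA carboxylases, inhibits Cpt1, and genes of this control moved in both directions, with 3 of 9 higher and 2 lower (18.9% and 22.5% over all genes). Acacb, the carboxylase of the mitochondrial surface, had 38.6, 47.6 and 46.2 CPM in VA-free and 15.1 and 13.7 CPM in control mice (1.62, SE 0.15, adjusted p = 0.000472, edgeR). Acaca, the cytosolic form, was higher by 1.35 (SE 0.32) and Prkab2, a subunit of the AMP-activated kinase that inhibits both carboxylases, by 1.79 (SE 0.14). The lower genes, named after their values were seen, were Stk11, the kinase that activates the AMP-activated kinase (-0.70, SE 0.20), and Prkab1, another of its subunits (-0.59, SE 0.14). Cpt1a and both carboxylases were higher in every VA-free mouse than in either control mouse. So were all 12 MuSC markers, with their part not tested.

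Among acyl-CoA dehydrogenases, which start the cycle for chains of different length, 1 of 4 was lower and 0 higher. Over all genes 22.5% were lower and 18.9% higher, and on TPM 2 of the 4 were higher and 0 lower. Acadvl, for very long chains, was the most abundant, at 188, 195 and 212 CPM in VA-free and 172 and 202 CPM in control mice, which overlapped (0.08, SE 0.12, adjusted p = 0.636, edgeR). It shares 42.9% of its exonic bases with Dvl2 on the opposite strand, a less abundant gene (mean 30.4 CPM) that was higher by 1.21, and the cDNA kit does not keep the strand. Acadm, for medium chains, had 75.1, 76.4 and 97.3 CPM in VA-free and 116 and 127 CPM in control mice (-0.55, SE 0.15, adjusted p = 0.0220, edgeR). Library control 2A held 175 CPM and 2B 93.1 CPM. The call was lost in 10 of 24 alternatives, among them those without 2A (-0.33), without 2B, 1A, control 2, VA-free 1 or VA-free 2, and the removal of the length trend (-0.26). Acadl (0.15) and Acads (0.41), for long and short chains, were not called.

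Hydratases, hydroxyacyl dehydrogenases and thiolases were nearly level on CPM, with 1 of 6 lower and 0 higher, beside 22.5% and 18.9% of all genes. On TPM with a pseudocount of 1, 4 of the 6 were higher and 0 lower, with a median of 0.43. Acaa1a, a peroxisomal thiolase and the most abundant gene of the step, had 149, 154 and 159 CPM in VA-free and 159 and 134 CPM in control mice (0.07, SE 0.12, adjusted p = 0.672, edgeR), and reads can be split with its close copy Acaa1b. Hadha and Hadhb, the subunits of the trifunctional protein of long-chain oxidation, gave 0.08 (SE 0.15) and -0.11 (SE 0.12) and were not called. Their annotated starts lie head to head, 273 bases apart, so that the same stretch lies before both genes. It is shown because the pair is read from it in opposite directions, written here from the side of Hadha (chr5:30154981-30155230, minus strand), and it holds neither DR1 letters nor the lone hexamer.
Hadha: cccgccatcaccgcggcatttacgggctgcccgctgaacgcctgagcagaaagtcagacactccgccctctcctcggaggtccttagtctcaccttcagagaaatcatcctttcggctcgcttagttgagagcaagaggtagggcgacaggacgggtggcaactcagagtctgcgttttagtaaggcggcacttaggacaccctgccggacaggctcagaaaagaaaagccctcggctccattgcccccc
Echs1, the short-chain hydratase, was lower (-0.44, SE 0.14, adjusted p = 0.0440, edgeR), with 70.8, 76.0 and 58.3 CPM beside 97.7 and 87.9 CPM. This call was the closest to the threshold and was lost in 11 of 24 alternatives, among them those without any 1 VA-free mouse, without control 1, and with the length trend removed (-0.24). Hadh (0.06) and the mitochondrial thiolase Acaa2 (-0.23) were not called.

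The isomerases that handle unsaturated fatty acids held a fall that was uniform across mice. Eci1, the delta3-delta2-enoyl-CoA isomerase of the matrix, had 51.7, 55.7 and 54.3 CPM in VA-free and 95.4 and 95.6 CPM in control mice. The groups were far apart relative to their spread, and the log2 fold change was -0.82 (SE 0.10, adjusted p = 0.00111, edgeR). The libraries of control 2 differed, with 132 CPM in 2A and 69.4 CPM in 2B. Eci1 is short (931 bases), and the length trend was the only alternative of 24 that ended its call (-0.20, adjusted p = 0.185, edgeR). Eci2 (-0.06) and the dienoyl reductase Decr1 (-0.22) were not called, while Decr1, a longer gene (2842 bases), reached -0.54 (adjusted p = 0.0159, edgeR) with the length trend removed.

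Electron transfer flavoprotein, which takes electrons from all acyl-CoA dehydrogenases, was lower in both of its subunits. The enzyme that receives its electrons was not called. Etfb had 95.9, 77.7 and 103 CPM in VA-free and 182 and 190 CPM in control mice (-1.01, SE 0.14, adjusted p = 0.00177, edgeR), without overlap. Like Eci1, it lost its call only with the length trend removed (-0.28, adjusted p = 0.180, edgeR), and with 721 bases it is the shortest of the 35 genes. It shares 53.0% of its exonic bases with Gm45233 on the same strand, to which few reads were assigned (mean 0.115 CPM). Etfa had 138, 121 and 149 CPM in VA-free and 170.3 and 313 CPM in control mice (-0.83, SE 0.25, adjusted p = 0.0328, edgeR). The control value of mouse 2 rested on library 2A with 495 CPM, beside 170.3 CPM in 2B, 164 in 1A and 165 in 1B. Without 2A the log2 fold change of Etfa was -0.33 (adjusted p = 0.0654, edgeR), and its call was lost in 12 of 24 alternatives, among them those without any 1 VA-free mouse, without control 2 (-0.33) and with the length trend removed (-0.36). Etfdh, the ubiquinone oxidoreductase that receives the electrons, gave 0.05 (SE 0.17, adjusted p = 0.856, edgeR), with 144 CPM in 2A beside 64.6 CPM in 2B. Its estimate ran from -0.32 without library control 2B to 0.51 on TPM with a pseudocount of 0.1.

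**Figure D4:**
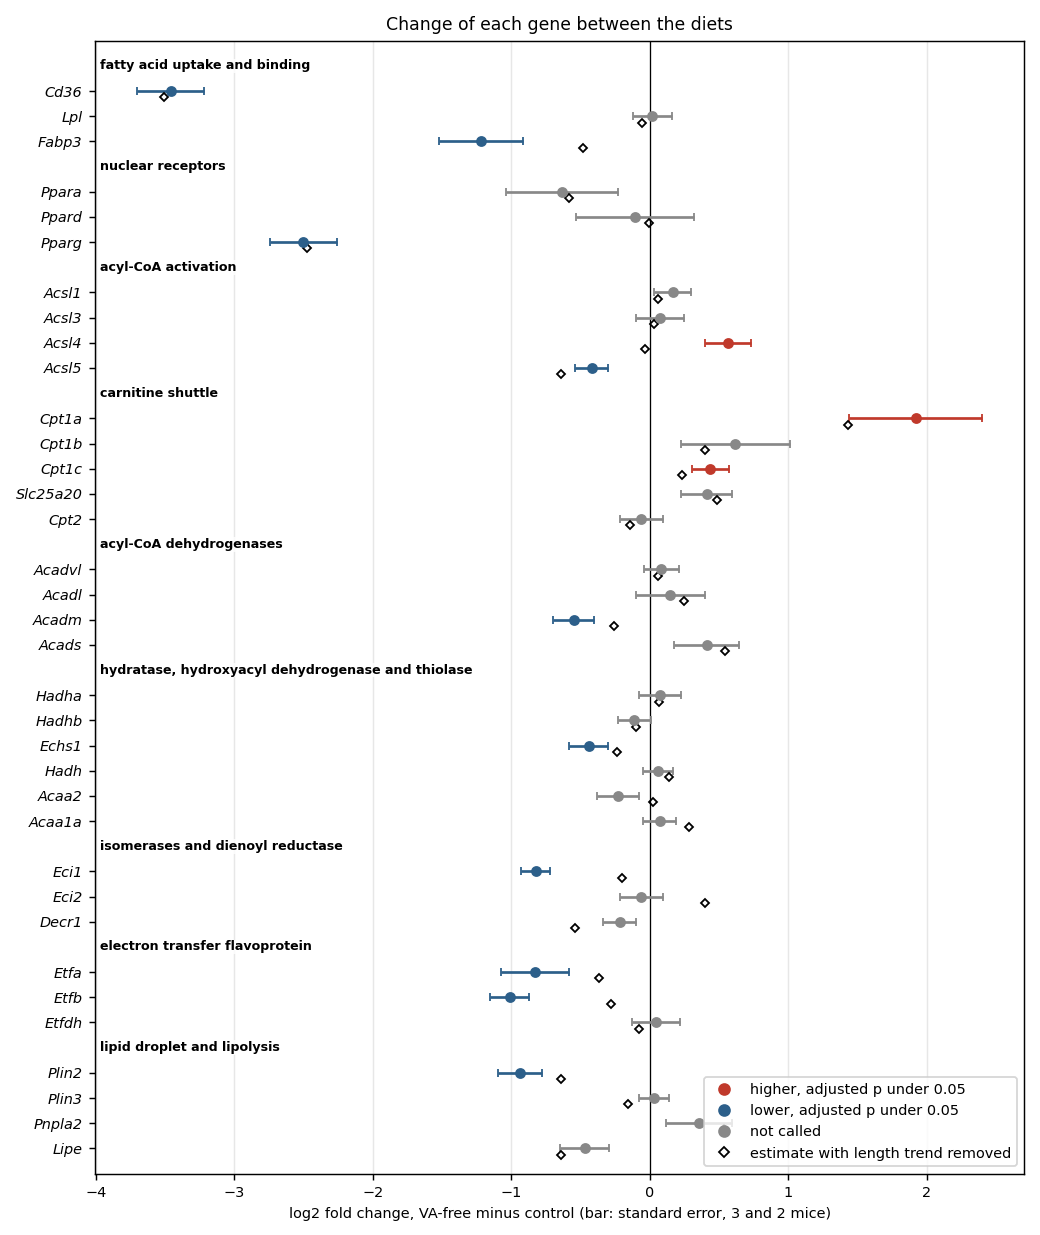
Log2 fold change (VA-free minus control) of the 35 genes by step, with bars of 1 standard error from edgeR over 3 and 2 mice, in red where higher, blue where lower and grey where not called. Open diamonds give the estimate with the length trend removed, which stays near the main value for Cd36 and Pparg, moves from -0.94 to -0.64 for Plin2 and moves further toward 0 for Eci1, Etfb and Fabp3.

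At the lipid droplet, the coat protein Plin2 fell and the others were not called. Plin2, which covers droplets in most cells and is used as a marker of stored lipid, had 34.2, 32.8 and 35.1 CPM in VA-free and 54.7 and 75.7 CPM in control mice. The VA-free mice were closely alike and all lay below the controls (-0.94, SE 0.16, adjusted p = 0.00347, edgeR). The call held in all 24 alternatives, at -0.64 with the length trend removed and -0.55 on TPM with a pseudocount of 1, although library 2A (106 CPM) was again above 2B (53.8 CPM). None of the alternatives adjusts for cell types. All 12 endothelial markers were lower and all 12 MuSC markers higher as well, with their part in the fall of Plin2 not tested. Plin3, a coat protein that exchanges with the cytosol, was the most abundant gene of the step, at 166, 178 and 180.0 CPM beside 166 and 175 CPM (0.03, SE 0.11, adjusted p = 0.839, edgeR). Per transcript length Plin3 exceeded Plin2 in every mouse, with 73.8% to 76.8% of their sum in VA-free and 55.6% to 61.8% in control mice.

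The lipases were not called, and both depended on the library of control 2. Pnpla2, the first lipase of triglyceride breakdown, had 77.0, 90.6 and 106 CPM in VA-free and 89.2 and 53.5 CPM in control mice (0.35, SE 0.24, adjusted p = 0.279, edgeR). Library 2A held 8.54 CPM and 2B held 97.0 CPM from the same mouse, the widest gap of the 35 genes, and without 2A the estimate was -0.03. It was called higher only without control 1 and on TPM. Lipe, the hormone-sensitive lipase, had 22.6, 20.3 and 22.8 CPM in VA-free and 35.5 and 25.2 CPM in control mice (-0.47, SE 0.18, adjusted p = 0.0744, edgeR). Its 2A value was 11.9 CPM beside 38.6 CPM in 2B, and without 2A it was past the threshold at -0.76, as it was without control 2, with DESeq2 and with the length trend removed (-0.64). Of other lipid droplet and triglyceride genes 4 of 20 tested were higher and 3 lower, close to the 18.9% and 22.5% of all genes. Mgll, the last lipase of the sequence, was lower (-1.46, SE 0.19), as was G0s2, an inhibitor of Pnpla2 (-0.91, SE 0.13), and Gpam, the first enzyme of glycerolipid synthesis, was higher (0.97, SE 0.13).

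**Figure D5:**
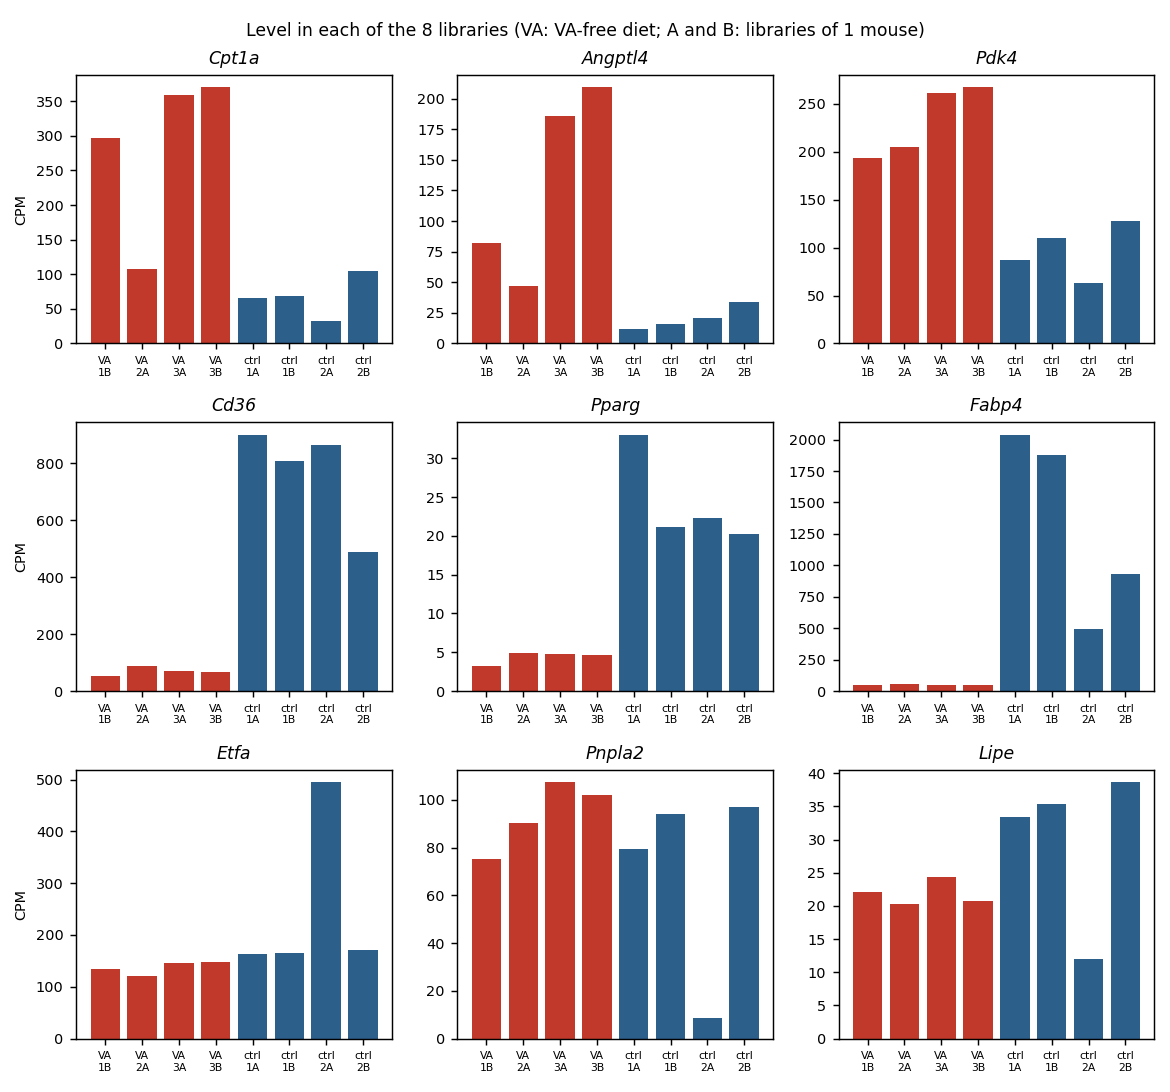
CPM in each of the 8 libraries (linear axes from 0, red for VA-free and blue for control) of 9 genes named in the text. The VA-free libraries of Cpt1a differ between mice but not within VA-free 3, Cd36, Pparg and Fabp4 are low in all 4 VA-free libraries, and control 2A stands alone for Etfa, Pnpla2 and Lipe.

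Neighbouring pathways had calls in both directions. Of 24 other mitochondrial acyl-CoA and carnitine genes tested 3 were higher and 9 lower, beside 18.9% higher and 22.5% lower over all genes. The named falls are the thioesterase Acot13 (-1.82, SE 0.14), Hsd17b10, an enzyme of branched-chain oxidation (-1.16, SE 0.13), and Mcee, of propionate breakdown (-0.92, SE 0.14). The 3 higher genes, named after their values were seen, were Slc22a5, the carnitine importer (0.87, SE 0.15), Crat, carnitine acetyltransferase (0.53, SE 0.13), and the scarce Acad10 (1.18, SE 0.32). Of 13 peroxisomal genes tested, with the same background, 3 were higher, among them the oxidase Acox3 (0.58, SE 0.19, adjusted p = 0.0499, edgeR), and 4 were lower, with Scp2, a peroxisomal thiolase and sterol carrier, at -0.85 (SE 0.12). In all, 30 of the 103 other genes tested were higher and 25 lower, beside 18.9% and 22.5% of all genes, with a median log2 fold change of 0.01. No estimate with the length trend removed is given for these genes. The 24 other mitochondrial genes had a median length of 1764.5 bases and the 9 genes of malonyl-CoA control 3785, beside 2081 for all genes tested.

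On TPM the picture of the enzymes was different. With a pseudocount of 1, 15 of the 35 genes were higher and 5 lower, with a median of 0.44, while the median of all genes moved to 0.19 and the share of lower among all calls went from 54.4% to 31.3%. The genes that were lower on this scale were Cd36, Pparg, Plin2, Eci1 and Etfb. Cpt1a was higher (2.20), and so were genes level on CPM, such as Lpl (0.47), Acadvl (0.60) and Plin3 (0.55). Cd36, Pparg and Plin2 were lower, and Cpt1a had a positive estimate, on CPM, on TPM and with the length trend removed. Of the enzymes inside the mitochondrion, Eci1 and Etfb were lower on CPM and TPM, while Hadhb was -0.11 and not called on CPM and 0.39 and called higher on TPM.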

How the data were processed

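RNA was measured in sorted MuSCs of 3 VA-free and 2 control mice in 8 libraries (SMART-Seq v4 cDNA, Nextera XT). The authors made the estimated counts and the deposited TPM values per transcript and library with kallisto 0.46.2 on Ensembl transcripts of GRCm38, and the deposited counts are not normalised. TPM are the same estimates divided by effective length and scaled to a fixed total, so they keep no depth.

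Estimated counts were added per gene with the annotation GENCODE M21, added over libraries of a mouse and rounded. Between 0.647% and 0.756% of counts lay on transcripts without a gene and were left out. VA-free and control mice were compared by the quasi-likelihood test of edgeR 4.0.16 (R 4.3.3) after TMM scaling and filterByExpr, with p adjusted by Benjamini-Hochberg over 17997 genes and a threshold of 0.05. A standard error is the log2 fold change divided by the root of its F. Mice per diet were separate animals, and the libraries of a mouse were not counted as replicates. CPM per library were scaled among the 8 libraries, so a mouse's value need not lie between those of its libraries. The length trend was removed per mouse with a lowess curve (span 0.3).

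The 24 alternatives were other normalisations, filters and tools (DESeq2 1.42.0, limma 3.58.1), other uses of the libraries, length corrections, TPM with pseudocounts 1 and 0.1, a block for replicate numbers, and the omission of single mice or libraries. The edgeR, DESeq2, limma-voom and length-trend fits were tested on counts simulated with known changes in a small share of genes and without a length trend. These data differ in both, and the other fits were not simulated. The members and lists were chosen with earlier results of these data known. Values per mouse are given for the most abundant member of each step and for members called with an absolute log2 fold change above 1. Of other pathway genes, up to 3 per group with the largest called changes at a mean of at least 10 CPM are named. Further values per mouse or library were added after they were seen. The lists held 110 other genes, of which 103 were tested, 5 lay below the filter and the rest had no match in the annotation. Some genes that this rule names are not reported here.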

Additional observations from a re-analysis of the deposited data

How the results depend on the processing

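The calls of Cd36, Pparg and Plin2 held in all 24 alternatives, and those of Eci1 and Etfb in all but the removal of the length trend. Beside 3 higher and 10 lower genes, 1 library per mouse gave 1 higher and 7 lower, removal of the length trend gave 0 higher and 6 lower, and TPM gave 15 higher and 5 lower with either pseudocount. The median of the 35 genes, -0.06, became 0.029 with limma-voom, 0.074 with a transcript length offset, and 0.44 and 0.47 on TPM with pseudocounts 1 and 0.1, where the median of all genes was 0.19 and 0.35. Leaving out a mouse or a library gave 0 to 3 higher and 5 to 10 lower genes and medians from -0.13 to 0.01. The lowest counts came without VA-free 1 (0 higher, 5 lower), without VA-free 2 (1 and 5) and without library control 2B (1 and 6), and the cause was not tested. With fewer mice the tests have fewer residual degrees of freedom. Among genes called in either fit, directions reversed for Acsl4 with the length trend removed (-0.032), for Acsl5 on TPM (0.16 with either pseudocount) and for Hadhb on TPM (0.39 and 0.40, called higher). Estimates of several genes called in neither fit also changed sign, such as Ppard (from -0.65 to 0.76 over the alternatives), Cpt2 (-0.19 to 0.41) and Etfdh (-0.32 to 0.51).

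With the replicate number as a block (replicate block), 2 genes were higher and 7 lower. The numbers are shared by 2 pairs of mice only, and the deviations of same-numbered mice correlated at -0.022 and -0.0045. With 2 control mice the deviations of the controls mirror each other. These correlations therefore cannot tell whether same-numbered mice share more than a number. The spread between 3 and 2 mice limits which small changes are called. Cpt1b, Ppara, Ppard and Fabp3 had the lowest mean CPM of the 35 genes.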
